A study of Mus musculus with 24 samples.

Results

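The comparison set the livers of mice fed 2.25 ppm selenium against those of mice fed 0.4 ppm, across 17932 of the 21894 genes in the table, in 6 of the series' 24 libraries. A gene was a member when its normalized read count was 1 or more in at least 3 of these 6 libraries, and 3962 genes did not reach that. The animals were males of the inbred strain C57BL/6J, kept on normal chow up to 8 weeks of age and then on a diet with a set amount of selenium for 5 weeks. Each diet had 3 liver libraries made from total RNA of whole liver, called a, b and c in the order of their columns, and no gross pathology was recorded. A liver at a given diet, below, stands for such a library, and no label says that the libraries are separate animals. Livers at 0 and 0.1 ppm and whole brains of the same 4 diets, with 3 libraries each, are used only where stated. Whether the animals were fed or fasted, the hour of collection and the cage are not given in the labels, so differences in these cannot be told apart from the diet.

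Selenium is a trace element that cells insert into selenoproteins as the amino acid selenocysteine, through a stop codon read by a dedicated tRNA and elongation factor. The liver takes up most dietary selenium, makes much of the body's glutathione peroxidase 1 and secretes selenoprotein P, which carries selenium to other tissues. When selenium is short, the mRNAs of several selenoproteins are degraded, whereas surplus selenium is methylated and excreted. High selenium intake has also been studied for its effects on insulin action and hepatic lipid and glucose metabolism.

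Reads on genes came to 11.5 to 14.5 M per library at 2.25 ppm and 13.8 to 15.1 M at 0.4 ppm. A count of 3 reads, the limit that a count of 0 allows, corresponded to 4.27 to 5.32 normalized reads at 2.25 ppm and 3.84 to 4.22 at 0.4 ppm, for counting error only. Values below are the authors' normalized read counts, and differences are log2(value + 1) at 2.25 minus 0.4 ppm with their standard error (SE) from limma. The median difference over all genes was 0.012. Markers of hepatocytes dominated as the tissue label says, with a summed level over 12 genes of 2030000 to 2370000 at 2.25 ppm and 1920000 to 2010000 at 0.4 ppm.

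Few liver transcripts differed past the test between 2.25 and 0.4 ppm selenium. Fasn, which makes palmitate, and Acsl3, which activates long-chain fatty acids, rose with Zfp36l1, Prdm10, Slc17a3 and an unnamed locus. The clock repressor Nr1d1, the growth factor receptor Egfr, Arhgef26 and Pptc7 fell. The largest rise of a named gene was 2.64-fold, for Fasn, and the largest fall 3.36-fold, for Nr1d1.

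By limma with Benjamini-Hochberg adjustment at 0.05, 10 of 17932 genes passed (0.0558%), 6 of them higher (0.0335%) and 4 lower (0.0223%). At an unadjusted p under 0.05, 2001 genes passed (11.2%), 1154 of them higher (6.44%) and 847 lower (4.72%). The quasi-likelihood test of edgeR on recovered reads called 6 genes (0.0335%), all among the 10, and DESeq2 called 121 (0.675%), 76 higher (0.424%) and 45 lower (0.251%), with the 10 among them. A limma fit of only the 6 libraries called 83 genes (0.463%), including the 10. Single libraries decided the limma count. Without library a of 0.4 ppm or library c of 2.25 ppm it was 0, with 1214 and 1572 genes at an unadjusted p under 0.05. It was 1 without library b of 2.25 ppm (Gpcpd1), 3 without library b of 0.4 ppm, 9 without library a of 2.25 ppm and 15 without library c of 0.4 ppm. Genes at an unadjusted p under 0.05 in these fits numbered 1944, 1689, 1818 and 1895 in that order. Counts of list members without a library, given below, belong beside the count of all genes without the same library.

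Fasn (chr11:120805846-120824547, minus strand) had 20660, 33769 and 28906 normalized reads in libraries a, b and c at 2.25 ppm, against 8693, 12936 and 9747 at 0.4 ppm. The lowest liver at 2.25 ppm was above the highest at 0.4 ppm. The log2 difference was 1.40 (SE 0.17, limma adjusted p = 0.0157), and leaving out single libraries put the adjusted p between 0.00312 and 0.144. Acsl3 (chr1:78657825-78707743, plus strand), an acyl-CoA synthetase of the endoplasmic reticulum and lipid droplets, had 848, 1166 and 1073 reads at 2.25 ppm, against 447, 615 and 517 at 0.4 ppm. Its groups did not overlap either, with a difference of 0.97 (SE 0.13, adjusted p = 0.0168).

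Zfp36l1 (chr12:80107754-80113013, minus strand), an RNA-binding protein that speeds the decay of mRNAs with AU-rich elements, had 2314, 1778 and 1571 reads at 2.25 ppm, against 741, 942 and 938 at 0.4 ppm. Every liver at 2.25 ppm was above every liver at 0.4 ppm, by 1.10 in log2 (SE 0.16, limma adjusted p = 0.0276). Prdm10 (chr9:31280538-31381723, plus strand), a zinc finger transcription factor, had 205, 227 and 246 reads at 2.25 ppm, against 105, 132 and 123 at 0.4 ppm. Its difference was 0.91 (SE 0.15, adjusted p = 0.0479), close to the threshold. Slc17a3 (chr13:23839434-23860716, plus strand), an organic anion transporter, averaged 2015 ± 138 reads at 2.25 ppm and 1428 ± 23.2 at 0.4 ppm (SD, n = 3 each), a difference of 0.49 (SE 0.08, adjusted p = 0.0430). The unnamed locus 9030616G12Rik, which falls outside the rule for named genes, had 117, 193 and 189 reads at 2.25 ppm, against 35.2, 44.8 and 70.5 at 0.4 ppm. Prdm10, Slc17a3 and this locus missed the threshold in edgeR, each with an adjusted p of 0.0616.

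Nr1d1 (chr11:98767932-98775333, minus strand), a nuclear receptor that represses Arntl and other clock genes, had 165, 147 and 141 reads at 2.25 ppm, against 729, 496 and 365 at 0.4 ppm. The livers at 2.25 ppm lay close together, and those at 0.4 ppm were spread over a wide range above them. The log2 difference was -1.75 (SE 0.27, limma adjusted p = 0.0430), and edgeR gave an adjusted p of 0.0792. Nr1d1 overlaps Thra on the other strand, and although the kit keeps strand, whether counting used it is not given in the sources used here.

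Egfr (chr11:16752203-16918158, plus strand), the receptor for epidermal growth factor, had 9389, 8604 and 6087 reads at 2.25 ppm, against 24336, 18159 and 19472 at 0.4 ppm. The groups were well apart, with a difference of -1.38 (SE 0.20, limma adjusted p = 0.0276). Arhgef26 (chr3:62338344-62462221, plus strand), a guanine nucleotide exchange factor, had 714, 507 and 618 reads at 2.25 ppm, against 1325, 1133 and 1417 at 0.4 ppm. Its difference was -1.08 (SE 0.14, adjusted p = 0.0157). Pptc7 (chr5:122284365-122324281, plus strand), a phosphatase of mitochondria, had 348, 332 and 246 reads at 2.25 ppm, against 595, 588 and 476 at 0.4 ppm, a difference of -0.85 (SE 0.13, adjusted p = 0.0429). Gene positions are those of GENCODE for GRCm38, the mm10 build.

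The same 10 genes took different courses over the 4 diets. Mean Fasn was 7861 normalized reads at 0 ppm, 4885 at 0.1 ppm, 10460 at 0.4 ppm and 27780 at 2.25 ppm. Of the 10, Fasn and Pptc7 also passed for 0.4 against 0.1 ppm, by 1.09 (limma adjusted p = 0.00986) for Fasn and -0.71 (adjusted p = 0.0177) for Pptc7. Mean Zfp36l1 was 670 reads at 0 ppm, 779 at 0.1 ppm, 874 at 0.4 ppm and 1887 at 2.25 ppm. Its 3 lower diets lay within a narrow band and the highest stood apart.

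Mean Egfr was 15570 reads at 0 ppm, 15000 at 0.1 ppm, 20660 at 0.4 ppm and 8027 at 2.25 ppm. Mean Nr1d1 was 1492 reads at 0 ppm, 650 at 0.1 ppm, 530 at 0.4 ppm and 151 at 2.25 ppm, and it also passed for 0 against 0.4 ppm, by 1.48 (limma adjusted p = 0.0107). Mean Pptc7 was 393 reads at 0 ppm, 900 at 0.1 ppm, 553 at 0.4 ppm and 309 at 2.25 ppm, highest at 0.1 ppm. These comparisons share libraries with the 2.25 against 0.4 ppm comparison, so their values are given side by side only. Over all genes, 1526 of 17932 passed for 2.25 against 0.1 ppm (8.51%), 284 for 0.4 against 0.1 ppm (1.58%) and 736 for 0 against 0.4 ppm (4.1%).

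**Figure D1:**
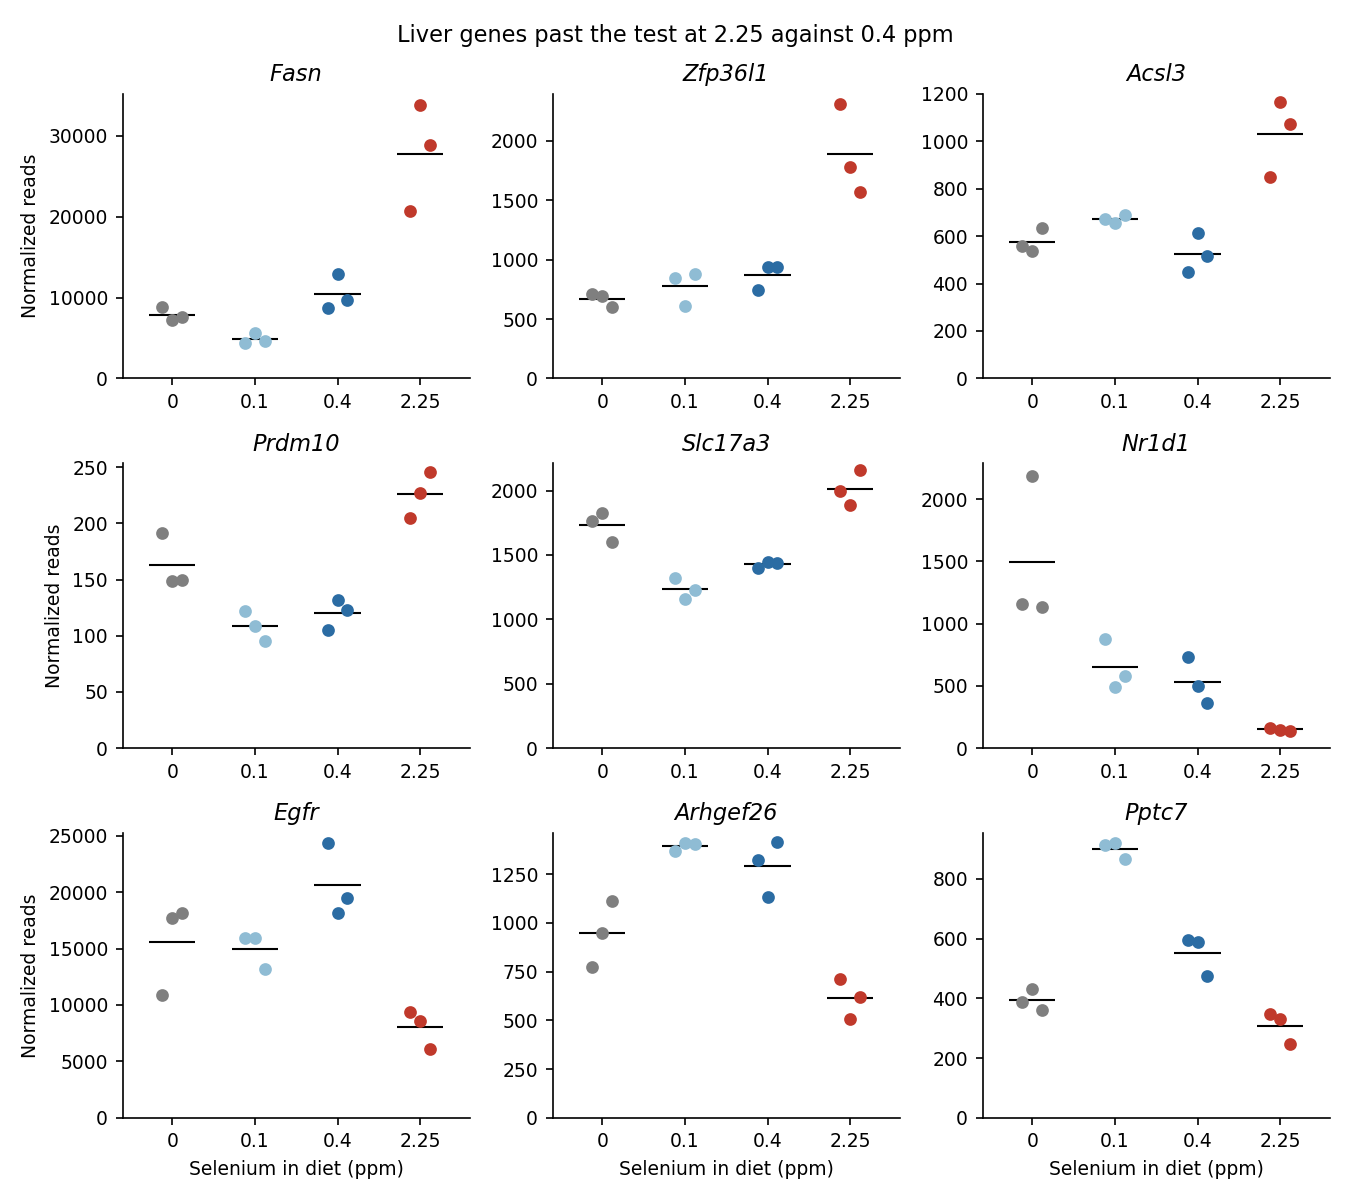
Normalized reads of the 9 named genes past the test in liver, by selenium in the diet (ppm, low to high). Each point is a library, the line is the mean of 3, and in every panel the 3 livers at 2.25 ppm do not overlap the 3 at 0.4 ppm.

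None of the 22 selenoproteins tested, of 24 in the list, passed by limma, edgeR or DESeq2. At an unadjusted p under 0.05, 1 was higher and 2 were lower, beside 6.44% and 4.72% of all genes, and their median difference was 0.02. The 2 lower genes became 0 without library c of 2.25 ppm or library b of 0.4 ppm, and 1 without library a of either diet. Selenop, the plasma selenium carrier, had 158990, 149990 and 142710 reads at 2.25 ppm, against 159250, 147630 and 162200 at 0.4 ppm. Gpx1, the cytosolic glutathione peroxidase, had 28166, 28633 and 28347 reads at 2.25 ppm, against 27285, 25990 and 29805 at 0.4 ppm. The groups overlapped for both. The 95% interval of the log2 difference was -0.15 to 0.23 for Gpx1, -0.14 to 0.19 for Gpx4, which removes lipid peroxides, and -0.31 to 0.05 for Selenow, a small cytosolic selenoprotein. The sign of the Gpx1 and Gpx4 differences, 0.04 and 0.03, turned under some settings.

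The 3 selenoproteins of smallest p were Selenoi, Selenoh and Txnrd3. Selenoi, an ethanolaminephosphotransferase, had 1584, 1520 and 1506 reads at 2.25 ppm, against 1207, 1268 and 1356 at 0.4 ppm, a difference of 0.27 (SE 0.09, limma adjusted p = 0.286). Selenoh, a nuclear selenoprotein, had 112, 105 and 94.5 reads at 2.25 ppm, against 127, 141 and 145 at 0.4 ppm, a difference of -0.40 (SE 0.17, adjusted p = 0.382). Txnrd3, a thioredoxin-glutathione reductase, had 92.4, 158 and 111 reads at 2.25 ppm, against 180, 170 and 159 at 0.4 ppm. The groups did not overlap for these 3 genes, though for Txnrd3 the nearest libraries had 158 and 159 reads. Of the 22 selenoproteins 1 was apart and higher and 3 were apart and lower, beside 11.8% and 7.23% of all genes. Mean Gpx1 was 10500 reads at 0 ppm, 26970 at 0.1 ppm, 27690 at 0.4 ppm and 28380 at 2.25 ppm. Mean Selenoh was 55.2 reads at 0 ppm, 129.8 at 0.1 ppm, 137.5 at 0.4 ppm and 103.8 at 2.25 ppm, and mean Selenow was 342 reads at 0 ppm, 1069 at 0.1 ppm, 1225 at 0.4 ppm and 1123 at 2.25 ppm.

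**Figure D2:**
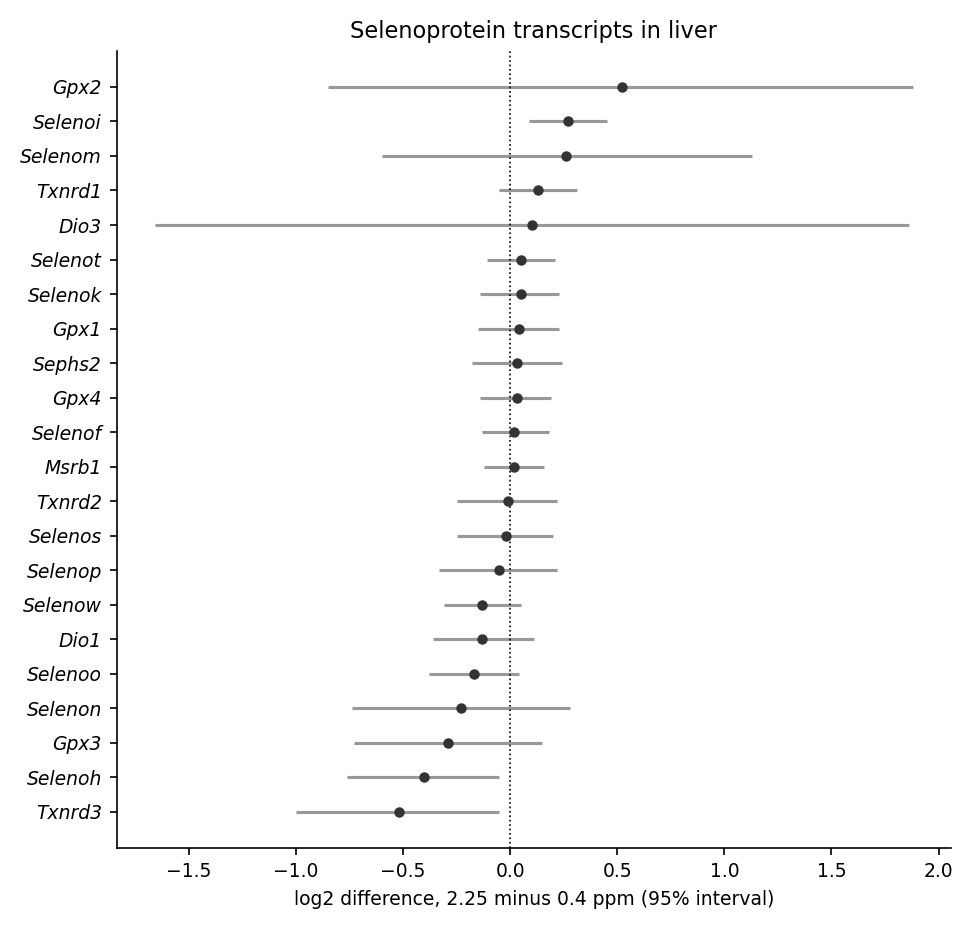
Log2 difference (2.25 minus 0.4 ppm) with its 95% interval for the 22 selenoprotein genes tested in liver. The intervals of Gpx1, Gpx4, Selenop and 16 others include 0, and the widest belong to Gpx2 and Dio3, which lie at under 2 normalized reads.

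The 18 genes of selenium metabolism and selenocysteine insertion had a median difference of 0.02, and none passed by limma, edgeR or DESeq2. At an unadjusted p under 0.05, 1 was higher and 4 were lower, beside 6.44% and 4.72% of all genes. The 4 lower became 2 without library a or c of 2.25 ppm. Eefsec, the selenocysteine elongation factor, had 466, 529 and 489 reads at 2.25 ppm, against 586, 560 and 603 at 0.4 ppm (difference -0.24, limma adjusted p = 0.294). Trnau1ap, which binds the selenocysteine tRNA, differed by -0.28, Pstk, the kinase that prepares the tRNA-bound serine, by -0.30, and Sephs1, a paralog of the selenophosphate synthetase Sephs2, by -0.23. Inmt, a methyltransferase that also methylates selenium compounds, had 10251, 9552 and 10085 reads at 2.25 ppm, against 6928, 7547 and 7166 at 0.4 ppm. Its groups were apart by 0.47 (SE 0.23), with an adjusted p of 0.483 in the fit over all 12 liver libraries and 0.0158 in the fit of only the 6 libraries.

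Genes of fatty acid synthesis are switched on after feeding by the transcription factors SREBP-1c and ChREBP. Of 30 members 1, Fasn, passed by limma. At an unadjusted p under 0.05, 10 were higher and 1 was lower, beside 6.44% and 4.72% of all genes, and 12 members had all livers at 2.25 ppm above all at 0.4 ppm, against 11.8% of all genes. The median difference was 0.05, near that of all genes, and 18 of 30 were above 0. DESeq2 called 4 higher, Fasn, Insig1, Mlxipl and Mid1ip1, and 1 lower, Lpin1, beside 0.424% and 0.251% of all genes.

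Mlxipl, the gene of ChREBP, had 6989, 8397 and 8857 reads at 2.25 ppm, against 5634, 5737 and 4533 at 0.4 ppm, a difference of 0.61 (SE 0.11, limma adjusted p = 0.0885). Mid1ip1, which helps acetyl-CoA carboxylase polymerize, had 2519, 2088 and 1563 reads at 2.25 ppm, against 927, 1399 and 1104 at 0.4 ppm. Acly, which makes cytosolic acetyl-CoA from citrate, had 5484, 6399 and 6938 reads at 2.25 ppm, against 3910, 4357 and 3824 at 0.4 ppm. In all 3 the groups did not overlap. Srebf1, which encodes SREBP-1, had 10136, 12278 and 8950 reads at 2.25 ppm, against 5841, 8284 and 6060 at 0.4 ppm (difference 0.64, adjusted p = 0.313). Scd1, the stearoyl-CoA desaturase and the most abundant of these transcripts, had 151520, 150770 and 145360 reads at 2.25 ppm, against 135940, 129200 and 150970 at 0.4 ppm, and its groups overlapped. Lpin1, a phosphatidate phosphatase and the lowest of the 12 members that were not above 0, had 3371, 3257 and 4668 reads at 2.25 ppm, against 10975, 6728 and 7323 at 0.4 ppm (difference -1.13, SE 0.21, adjusted p = 0.0938).

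Of 25 genes of cholesterol synthesis, uptake and control, many of them targets of SREBP-2, none passed by limma or edgeR. DESeq2 called 1, Mvd, which was higher, beside 0.424% of all genes. At an unadjusted p under 0.05, 12 were higher and 0 lower, beside 6.44% and 4.72% of all genes, and 23 of 25 had a positive difference, with a median of 0.27. Mvd, the mevalonate diphosphate decarboxylase, had 478, 1056 and 1133 reads at 2.25 ppm, against 297, 360 and 370 at 0.4 ppm. Hmgcs1, which makes HMG-CoA, had 3580, 9434 and 7182 reads at 2.25 ppm, against 3845, 3284 and 4946 at 0.4 ppm. In both genes library a was the lowest of the livers at 2.25 ppm, and for Hmgcs1 it lay within the 0.4 ppm range. Without that library 20 members were higher at an unadjusted p under 0.05. The count was 4 without library a of 0.4 ppm, 5 without library b of 2.25 ppm, and 6 without library c of 2.25 ppm or library b of 0.4 ppm.

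Insig1 and Insig2, which hold the SREBP precursors in the endoplasmic reticulum, had differences of 0.95 (SE 0.17, limma adjusted p = 0.08) and 0.75 (SE 0.26, adjusted p = 0.318). Insig1 had 7866, 12028 and 9443 reads at 2.25 ppm, against 3877, 4906 and 6536 at 0.4 ppm. Abcg5 and Abcg8, which form the transporter that exports sterols into bile, had differences of -0.61 (adjusted p = 0.211) and -0.72 (adjusted p = 0.192). Abcg8 had 772, 951 and 710 reads at 2.25 ppm, against 1778, 1155 and 1128 at 0.4 ppm, and DESeq2 called both genes.

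Of the 22 clock genes 1, Nr1d1, passed by limma. The groups of 13 members did not overlap, 6 higher and 7 lower at 2.25 ppm, beside 11.8% and 7.23% of all genes and 19% in either direction. The output gene Dbp had 101, 216 and 107 reads at 2.25 ppm, against 879, 566 and 344 at 0.4 ppm (difference -2.06, SE 0.46, limma adjusted p = 0.15). Ciart, a repressor of the clock activators, had 104, 190 and 64.5 reads at 2.25 ppm, against 551, 462 and 282 at 0.4 ppm. Both were lower in every liver at 2.25 ppm than in any at 0.4 ppm. On the other side stood Arntl, the activator also called BMAL1, with 438, 261 and 333 reads at 2.25 ppm, against 81.6, 119 and 207 at 0.4 ppm (difference 1.41, SE 0.48, adjusted p = 0.304). Cry1, a repressor, had 927, 662 and 729 reads at 2.25 ppm, against 301, 414 and 488 at 0.4 ppm. DESeq2 called 1 member higher and 2 lower, beside 0.424% and 0.251% of all genes, the lower being Nr1d1 and Dbp. Clock transcripts vary with the hour of the day, and the hour of collection cannot be told apart from the diet here.

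**Figure D3:**
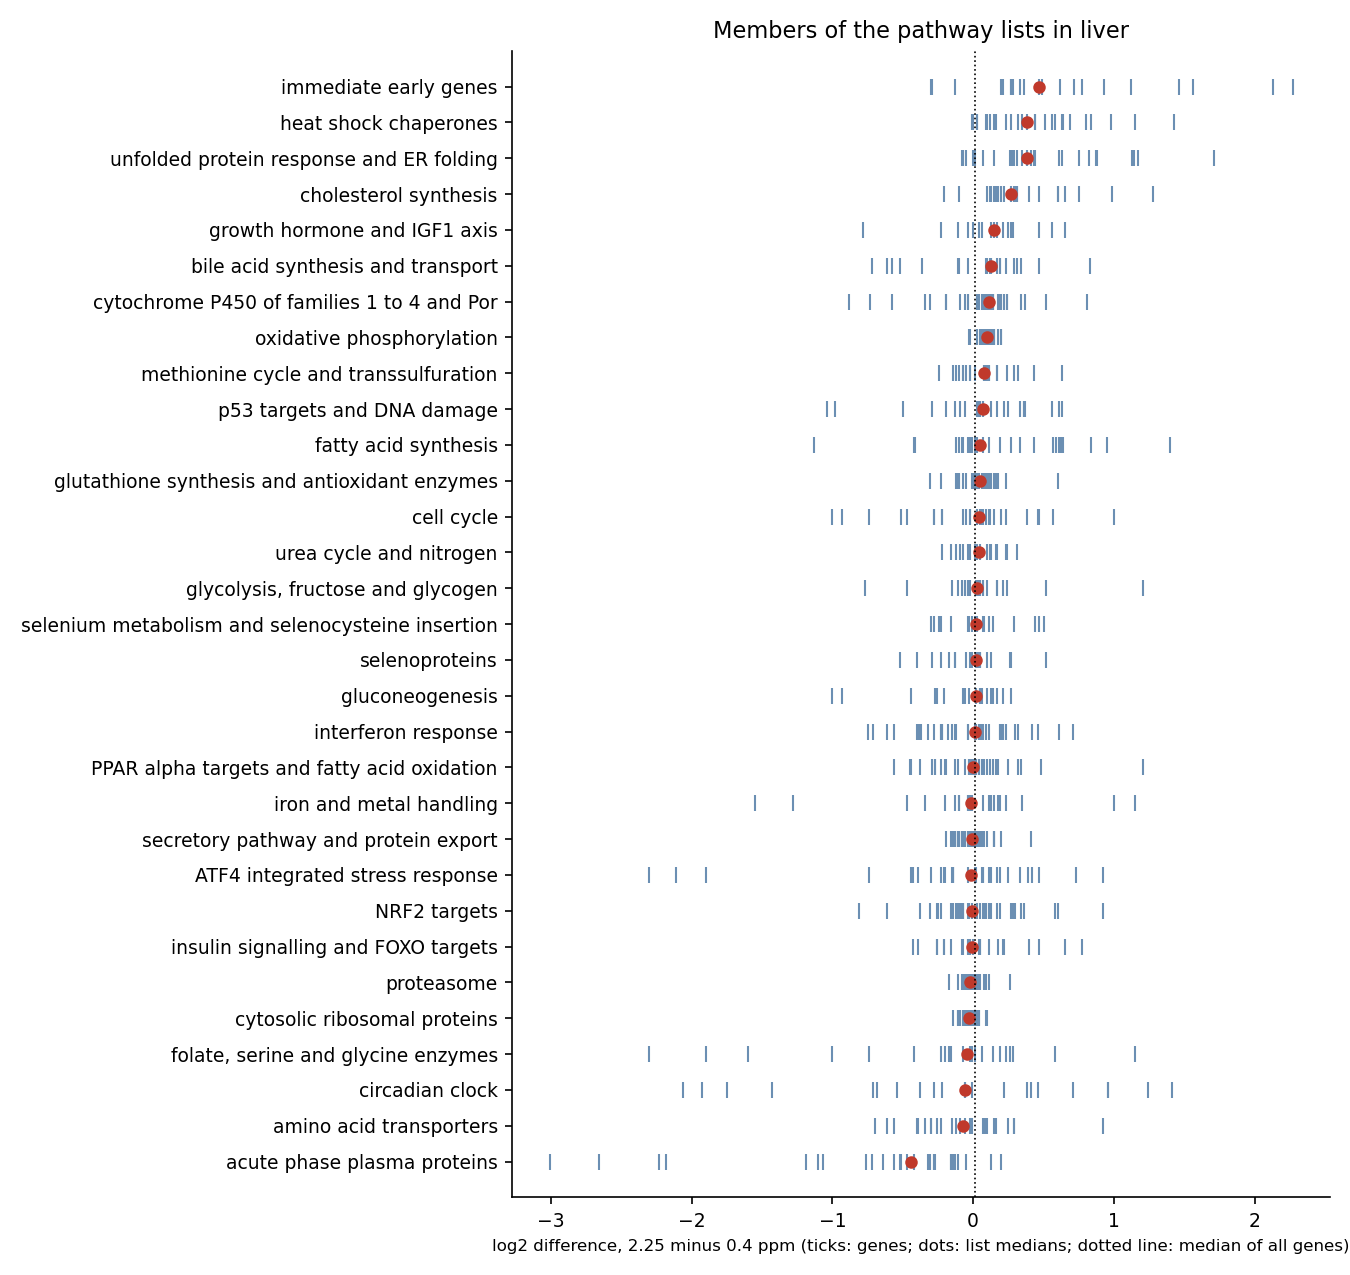
Log2 difference (2.25 minus 0.4 ppm) of each member of the 31 pathway lists in liver, ordered by list median. Ticks are genes, dots are list medians and the dotted line is the median of all genes, 0.012. The medians run between -0.44 for acute phase plasma proteins and 0.47 for immediate early genes.

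The genes of the unfolded protein response and folding in the endoplasmic reticulum (ER) had positive differences in 25 of 29 members. The response senses unfolded protein through ATF6, IRE1 and PERK and raises chaperones and the machinery that disposes of misfolded protein. None of the 29 members passed by limma or edgeR, and DESeq2 called Pdia4 and Sel1l, both higher, beside 0.424% of all genes. At an unadjusted p under 0.05, 19 of 29 were higher and 0 lower, beside 6.44% and 4.72% of all genes, and the median difference was 0.38. Library c of 2.25 ppm was the highest liver in most of them, and without it the count was 10 of 29 and the median 0.26.

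Many of these genes carry an ER stress element in their promoter, the sequence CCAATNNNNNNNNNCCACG, to which NF-Y and ATF6 or XBP1 are known to bind. In RefSeq promoters of GRCm38.p6, 250 bases before to 50 after the start, a match on either strand was found in 9 of 24 members with a promoter (37.5%) and in 20 of 11959 genes with a promoter (0.17%). A match is a description of the letters in the window. The 9 were Calr, Canx, Creld2, Derl3, Dnajc3, Hsp90b1, Hspa5, Pdia6 and Syvn1. The 5 promoters shown belong to the members with a match and the largest differences, and capitals mark the fixed letters of the match, which reads in reverse complement for Creld2, Derl3 and the match of Hsp90b1 nearer to the start. They lie at chr2:34771840-34772139 (plus strand) for Hspa5, chr10:86705395-86705694 (minus strand) for Hsp90b1, chr19:6046326-6046625 (plus strand) for Syvn1, chr15:88819396-88819695 (plus strand) for Creld2 and chr10:75893148-75893447 (plus strand) for Derl3. The match begins 65 bases before the start in Hspa5, 44 in Syvn1, 126 in Creld2, 156 in Derl3, and 212 and 107 in Hsp90b1.
Hspa5: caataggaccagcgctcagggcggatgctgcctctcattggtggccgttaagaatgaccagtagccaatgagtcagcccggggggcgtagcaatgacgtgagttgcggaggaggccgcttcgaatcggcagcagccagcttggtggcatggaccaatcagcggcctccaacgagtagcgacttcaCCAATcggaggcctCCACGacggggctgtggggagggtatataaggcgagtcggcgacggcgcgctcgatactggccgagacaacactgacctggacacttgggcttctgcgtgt
Hsp90b1: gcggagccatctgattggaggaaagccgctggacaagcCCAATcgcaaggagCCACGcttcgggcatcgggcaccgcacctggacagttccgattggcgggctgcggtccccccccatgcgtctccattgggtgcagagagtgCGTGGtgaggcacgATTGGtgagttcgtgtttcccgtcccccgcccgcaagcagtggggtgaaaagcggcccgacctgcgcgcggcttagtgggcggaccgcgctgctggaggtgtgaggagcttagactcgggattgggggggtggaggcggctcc
Syvn1: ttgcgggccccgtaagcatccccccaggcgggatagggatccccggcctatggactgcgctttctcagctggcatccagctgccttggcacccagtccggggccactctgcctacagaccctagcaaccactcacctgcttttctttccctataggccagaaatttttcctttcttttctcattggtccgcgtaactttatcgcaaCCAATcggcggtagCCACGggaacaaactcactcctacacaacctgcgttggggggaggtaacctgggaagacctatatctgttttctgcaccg
Creld2: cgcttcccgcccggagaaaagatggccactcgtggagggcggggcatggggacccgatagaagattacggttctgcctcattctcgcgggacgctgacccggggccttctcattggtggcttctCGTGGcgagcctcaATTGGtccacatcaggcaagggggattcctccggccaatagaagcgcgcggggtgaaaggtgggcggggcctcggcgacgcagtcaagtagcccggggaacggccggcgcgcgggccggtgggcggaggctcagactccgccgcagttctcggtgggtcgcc
Derl3: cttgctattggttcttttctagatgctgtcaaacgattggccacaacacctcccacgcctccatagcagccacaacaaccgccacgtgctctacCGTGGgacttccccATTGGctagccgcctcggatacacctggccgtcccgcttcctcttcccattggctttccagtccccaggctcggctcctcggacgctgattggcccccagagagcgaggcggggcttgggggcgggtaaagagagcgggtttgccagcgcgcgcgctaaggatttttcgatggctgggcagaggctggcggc

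Hspa5, the main ER chaperone, also called BiP, had 28176, 30663 and 50260 reads at 2.25 ppm, against 17408, 20880 and 19146 at 0.4 ppm, a difference of 0.88 (SE 0.24, limma adjusted p = 0.224). Hsp90b1, the ER form of HSP90, had 15594, 16763 and 26672 reads at 2.25 ppm, against 12275, 13112 and 12257 at 0.4 ppm. Syvn1, the ubiquitin ligase of ER-associated degradation, had 3964, 4715 and 8926 reads at 2.25 ppm, against 2159, 3078 and 2416 at 0.4 ppm, a difference of 1.13 (SE 0.27, adjusted p = 0.17). In all 3 genes the groups did not overlap and library c was the highest. Sel1l, the partner of Syvn1, had 5591, 4999 and 7962 reads at 2.25 ppm, against 3508, 4151 and 4147 at 0.4 ppm. Creld2, a secreted ER stress protein, had 1582, 2007 and 3752 reads at 2.25 ppm, against 864, 1288 and 991 at 0.4 ppm, and Derl3, a degradation factor of the ER membrane, had 102, 85.2 and 450 against 25.3, 61.5 and 69.1. Edem1, which directs misfolded glycoproteins to degradation, had 5212, 5352 and 5784 reads at 2.25 ppm, against 4295, 4111 and 4388 at 0.4 ppm (difference 0.35, SE 0.10, adjusted p = 0.211). Xbp1, a transcription factor of the response, differed by -0.05 and the disulfide isomerase P4hb by 0.00, and the groups of both overlapped.

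Heat shock chaperones of the cytosol and mitochondria had a median difference of 0.38 over 27 members, 26 of them above 0. None passed by limma or edgeR, and DESeq2 called Hspb1, higher, beside 0.424% of all genes. At an unadjusted p under 0.05, 11 were higher and 0 lower, beside 6.44% and 4.72% of all genes. Hspb1, a small heat shock protein, had 357, 635 and 1061 reads at 2.25 ppm, against 166, 224 and 325 at 0.4 ppm, a difference of 1.43 (SE 0.32, limma adjusted p = 0.15). Hsp90ab1, the constitutive cytosolic HSP90, had 21418, 27258 and 32934 reads at 2.25 ppm, against 15864, 18208 and 20692 at 0.4 ppm. Dnajb1, a co-chaperone of HSP70, had 1125, 1309 and 1428 reads at 2.25 ppm, against 584, 711 and 958 at 0.4 ppm. In these genes library a was the lowest and library c the highest of both groups. The count of 11 became 4 without library a of 0.4 ppm, 5 without library c of 2.25 ppm and 7 without library b of 2.25 ppm. Hspd1 and Hspa9, chaperones of mitochondria, differed by 0.09 and 0.03. Hspa1a and Hspa1b are near-identical copies and their reads may be split. The heat shock element GAANNTTCNNGAA was present in 4 of 21 member promoters (19%) and in 70 of 11959 promoters of all genes (0.59%). The 4 were Chordc1, Hspd1, Hspe1 and Hsph1, with differences of 0.32, 0.09, 0.23 and 0.69 in that order. Hspb1, Hsp90ab1 and Dnajb1 were not among them.

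**Figure D4:**
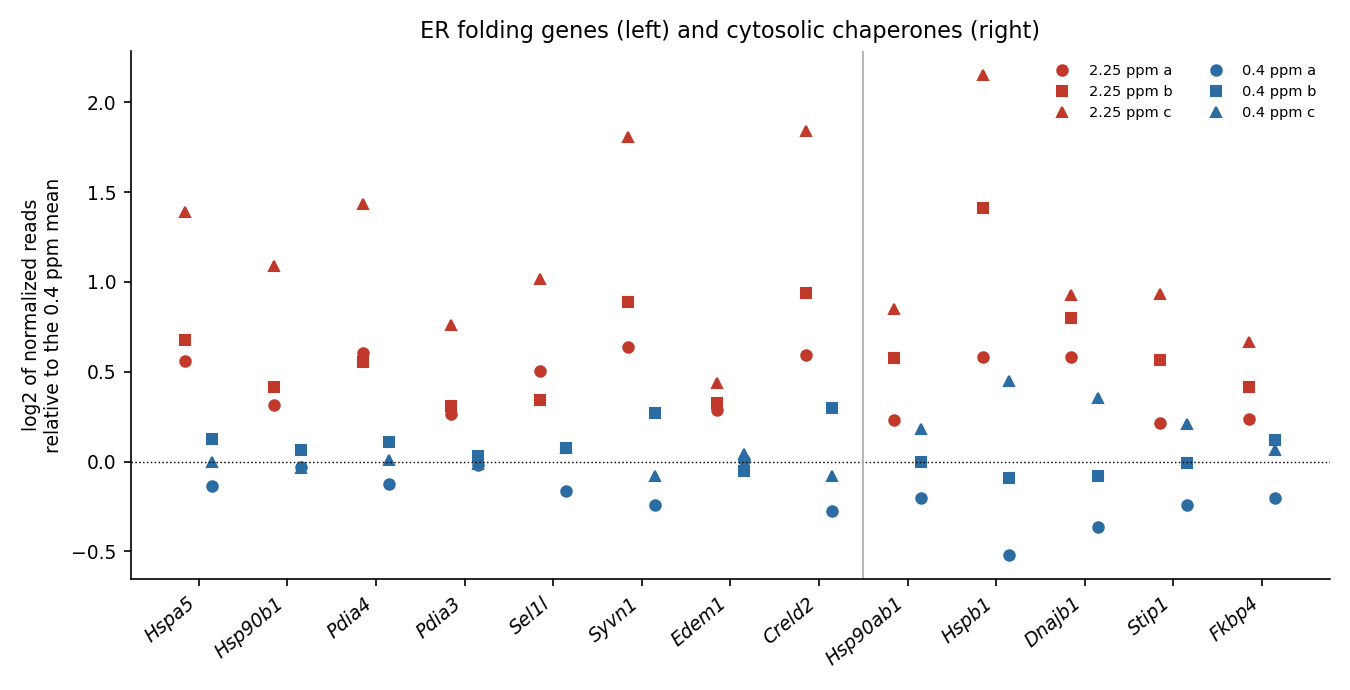
Log2 of normalized reads relative to the mean of the 3 livers at 0.4 ppm, for 8 ER folding genes and 5 cytosolic chaperones or co-chaperones. Livers at 2.25 ppm are drawn left of those at 0.4 ppm for each gene, symbols mark libraries a, b and c, and the triangle of 2.25 ppm c is the highest in all 13 genes.

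Among the 32 targets of the integrated stress response through ATF4, none passed by limma or edgeR. At an unadjusted p under 0.05, 2 were higher and 5 lower, beside 6.44% and 4.72% of all genes. DESeq2 called Ddit3 higher and Eif4ebp1 lower, beside 0.424% and 0.251% of all genes. The median was -0.01, and 16 of 32 were above 0. Atf4 itself had 2185, 2585 and 2164 reads at 2.25 ppm, against 1526, 1736 and 1914 at 0.4 ppm (difference 0.42, SE 0.11, limma adjusted p = 0.211). Ddit3, the transcription factor CHOP, had 276, 334 and 363 reads at 2.25 ppm, against 193, 188 and 202 at 0.4 ppm. Both were above 0.4 ppm in every liver. Asns, asparagine synthetase, had 17.1, 24.8 and 19.5 reads at 2.25 ppm, against 160, 74.3 and 62.4 at 0.4 ppm (difference -2.11, SE 0.61, adjusted p = 0.242). Psat1, of serine synthesis, had 7.11, 7.10 and 7.5 reads at 2.25 ppm, against 36.6, 33.3 and 21.7 at 0.4 ppm. Phgdh, the first enzyme of that pathway, had 0 reads in all 3 livers at 2.25 ppm and 5.63, 3.84 and 2.71 at 0.4 ppm. It was near the floor in both groups, and Psat1 was little above the floor at 2.25 ppm. DESeq2 gave no adjusted p for Asns, Psat1 or Phgdh.

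Of 19 genes of gluconeogenesis none passed by limma or edgeR, and DESeq2 called Sds and Got1, both lower, beside 0.251% of all genes. At an unadjusted p under 0.05, 0 were higher and 4 lower, beside 6.44% and 4.72% of all genes. The 4 became 2 without library c of 2.25 ppm or library a of 0.4 ppm. Sds, serine dehydratase, had 2586, 2489 and 1427 reads at 2.25 ppm, against 4637, 4300 and 3704 at 0.4 ppm (difference -1.0, SE 0.18, limma adjusted p = 0.08). Got1, cytosolic aspartate aminotransferase, had 5729, 6241 and 2798 reads at 2.25 ppm, against 9144, 8654 and 8754 at 0.4 ppm. The groups did not overlap, and library c of 2.25 ppm was the lowest. Pck1, the cytosolic PEP carboxykinase, had 19370, 33457 and 17203 reads at 2.25 ppm, against 32492, 28564 and 20948 at 0.4 ppm, with overlap. Of the 22 folate, serine and glycine genes, none passed by limma or edgeR. At an unadjusted p under 0.05, 3 were higher and 4 lower, beside 6.44% and 4.72% of all genes. Without library b of 2.25 ppm or library a of 0.4 ppm, 1 was higher. The 4 lower were Sds, Psat1, Phgdh and Mthfd1l. Sds is also in the gluconeogenesis list, and Psat1 and Phgdh are also in the ATF4 list. DESeq2 called 1 in each direction, beside 0.424% of all genes higher and 0.251% lower.

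Of 24 genes of insulin signalling and FOXO targets none passed by limma or edgeR, and DESeq2 called Eif4ebp1, lower, beside 0.251% of all genes. Eif4ebp1 is also in the ATF4 list, and Foxo1, lower as well, is also in the gluconeogenesis list. Of the 24, 3 were higher and 3 lower at an unadjusted p under 0.05, beside 6.44% and 4.72% of all genes. The higher became 1 without library c of 0.4 ppm, and the lower became 1 without that library, library a of 0.4 ppm or library c of 2.25 ppm. Irs2, the insulin receptor substrate of liver, had 265, 335 and 308 reads at 2.25 ppm, against 226, 188 and 127 at 0.4 ppm (difference 0.77, SE 0.25, limma adjusted p = 0.294), and Irs1 had 239, 241 and 312 against 173, 210 and 127. Eif4ebp1, an inhibitor of translation, had 603, 667 and 639 reads at 2.25 ppm, against 775, 854 and 868 at 0.4 ppm. In all 3 the groups did not overlap. Pdk4, a member of the glycolysis and PPAR alpha lists that inhibits pyruvate dehydrogenase, had 174, 163 and 140 reads at 2.25 ppm, against 64.7, 65.3 and 73.2 at 0.4 ppm (difference 1.21, SE 0.36, adjusted p = 0.258), and DESeq2 called it.

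Of 41 targets of NRF2, the factor that answers oxidative and electrophilic stress, none passed by limma, edgeR or DESeq2, with 6 higher and 1 lower at an unadjusted p under 0.05, beside 6.44% and 4.72% of all genes, and a median of -0.01. The 6 became 2 without library a of 0.4 ppm and 3 without library c of 2.25 ppm or library b of 0.4 ppm. Gclc, the catalytic subunit of glutathione synthesis, had 4798, 4616 and 5211 reads at 2.25 ppm, against 3173, 3270 and 3187 at 0.4 ppm. Its groups were far apart for their own spread, with a difference of 0.60 (SE 0.18, limma adjusted p = 0.261), and the fit of only the 6 libraries gave an adjusted p of 0.00953. Nqo1, a quinone reductase often used as a marker of NRF2, had 128, 110 and 129 reads at 2.25 ppm, against 170, 155 and 247 at 0.4 ppm. Bhmt, which remethylates homocysteine with betaine, had 86469, 83762 and 62980 reads at 2.25 ppm, against 43424, 49473 and 56768 at 0.4 ppm (difference 0.63, SE 0.19, adjusted p = 0.273).

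Genes of oxidative phosphorylation showed small differences of like sign. None of the 40 members passed by limma, edgeR or DESeq2, and 0 had an unadjusted p under 0.05. In 22 of them all livers at 2.25 ppm were above all at 0.4 ppm, and in 0 all were below, beside 11.8% and 7.23% of all genes. The differences ran between -0.03 and 0.20 with a median of 0.10, which became 0.06 after quantile normalization. Sdha, a subunit of succinate dehydrogenase, had 10790, 11201 and 11078 reads at 2.25 ppm, against 9555, 9858 and 9383 at 0.4 ppm. The 37 ribosomal protein genes had a median of -0.03 and the 31 proteasome genes -0.02.

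Most acute phase transcripts had negative differences, with wide spread. None of the 28 acute phase plasma proteins passed by limma, edgeR or DESeq2, with 0 higher and 2 lower at an unadjusted p under 0.05, beside 6.44% and 4.72% of all genes, and 2 of 28 had a positive difference, with a median of -0.44. Orm2, an acid glycoprotein, had 1179, 1308 and 305 reads at 2.25 ppm, against 6318, 2300 and 16846 at 0.4 ppm (difference -3.01, SE 1.17, limma adjusted p = 0.36). Saa1, serum amyloid A, had 10471, 25190 and 1790 reads at 2.25 ppm, against 31140, 18531 and 84028 at 0.4 ppm, and its groups overlapped. Library c was the highest at 0.4 ppm and the lowest at 2.25 ppm in both genes. Without library c of 0.4 ppm or library c of 2.25 ppm, 0 of 28 had an unadjusted p under 0.05, with a median of -0.26 and -0.32 in that order, and 5 were lower without library a of 2.25 ppm or library b of 0.4 ppm. Orm1, Orm2 and Orm3, like the Saa genes, are close copies among which reads may be split.

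Markers of other cell types were set beside these values, and for the types given here the summed levels overlapped between the diets. All 12 markers of Kupffer cells, the macrophages of liver, had a negative difference, with a median of -0.27, none passed by limma, edgeR or DESeq2, and 0 were higher and 4 lower at an unadjusted p under 0.05, beside 6.44% and 4.72% of all genes. Their summed level was 11100 to 15000 reads at 2.25 ppm and 14200 to 18100 at 0.4 ppm. Clec4f, which is specific to Kupffer cells, had 2583, 2571 and 3214 reads at 2.25 ppm, against 3347, 3118 and 3762 at 0.4 ppm, and Cd5l had 2236, 2216 and 2942 against 3368, 3302 and 4249. The median was -0.41 without library c of 2.25 ppm and -0.17 without library c of 0.4 ppm. The count of 4 became 10 without library c of 2.25 ppm, 1 without library b of 2.25 ppm or library c of 0.4 ppm, 2 without library a of 2.25 ppm and 6 without library a of 0.4 ppm. In whole tissue, fewer cells and less RNA per cell cannot be told apart.

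The 9 neutrophil markers tested summed to 64.0 to 99.0 reads at 2.25 ppm and 88.3 to 255 at 0.4 ppm, and none passed by limma, edgeR or DESeq2, with 0 higher and 3 lower at an unadjusted p under 0.05, beside 6.44% and 4.72% of all genes, and 1 lower without library c of 0.4 ppm. S100a8 had 2.84, 0 and 4.50 reads at 2.25 ppm, all about the level of 3 reads or under it, against 18.3, 10.2 and 50.2 at 0.4 ppm. The 10 cholangiocyte markers had a median of 0.33, which was 0.19 without library b of 2.25 ppm, and sums of 1080 to 1750 at 2.25 ppm and 1220 to 1320 at 0.4 ppm. The part of these cells in the acute phase and other differences was not tested. No cell type marker found in the table was at 0 in all 6 livers.

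The 43 interferon response genes had a median of 0.01, with 1 higher and 6 lower at an unadjusted p under 0.05, beside 6.44% and 4.72% of all genes. Without library c of 2.25 ppm 17 were lower and 0 higher, with a median of -0.21. Without library a or b of 2.25 ppm 3 were higher, and without library a of 0.4 ppm 0 were. None passed by limma or edgeR, and DESeq2 called Oasl2 and Usp18, both lower, beside 0.251% of all genes. Oasl2, an antiviral oligoadenylate synthetase-like protein, had 118, 140 and 171 reads at 2.25 ppm, against 235, 191 and 225 at 0.4 ppm (difference -0.61, SE 0.15, limma adjusted p = 0.163). Usp18, which removes ISG15 from proteins, had 159, 172 and 237 reads at 2.25 ppm, against 411, 297 and 255 at 0.4 ppm. The groups of both did not overlap.

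Immediate early genes, which respond within minutes to stimulation or handling, had the highest median of the pathway lists, 0.47 over 21 members. None passed by limma, edgeR or DESeq2, with 3 higher and 0 lower at an unadjusted p under 0.05, beside 6.44% and 4.72% of all genes. Fos had 951, 31.9 and 19.5 reads at 2.25 ppm, against 8.44, 21.8 and 25.8 at 0.4 ppm, and Egr1 had 2651, 76.3 and 36.0 against 46.4, 85.8 and 70.5. Library a of 2.25 ppm was far above the other 5 livers in both, and without it the list had 0 members at an unadjusted p under 0.05 and a median of 0.24. The higher members numbered 6 without library c of 2.25 ppm, with a median of 0.70, 5 without library b of 2.25 ppm, and 1 without library a of 0.4 ppm, with a median of 0.31. Myc had 401, 79.8 and 623 reads at 2.25 ppm, against 98.4, 97.3 and 97.6 at 0.4 ppm, so that library b lay below the 0.4 ppm livers.

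The same step in diet was set beside the brain. In whole brain 0 of 20631 genes passed for 2.25 against 0.4 ppm by limma (0%), with 1305 at an unadjusted p under 0.05 (6.33%), 0 by edgeR and 1 by DESeq2 (0.00485%). The difference between the tissues was tested in a fit over the libraries of liver and brain, in which 10 of 16801 genes passed (0.0595%). Leaving out single libraries moved that count between 3 and 17. Of the 10, Fasn, Arhgef26, Acsl3, Egfr and Pptc7 were also past the test in liver.

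Liver minus brain, the difference was 1.42 for Fasn (SE 0.20, limma adjusted p = 0.00374), -1.22 for Arhgef26 (SE 0.17, adjusted p = 0.00374) and 1.06 for Acsl3 (SE 0.16, adjusted p = 0.00551). It was -1.45 for Egfr (SE 0.24, adjusted p = 0.0168) and -0.84 for Pptc7 (SE 0.15, adjusted p = 0.0275). Brain Fasn averaged 3204 ± 208 reads at 2.25 ppm and 3233 ± 55.2 at 0.4 ppm (SD, n = 3 each), a difference of -0.01 (SE 0.06). Brain Egfr averaged 196 ± 4.92 reads at 2.25 ppm and 187 ± 16.6 at 0.4 ppm. Brain Nr1d1 averaged 1004 ± 61.9 reads at 2.25 ppm and 1088 ± 17.5 at 0.4 ppm. The other 5 genes were not past the test in liver. Nceh1, a cholesteryl ester hydrolase, had 677, 756 and 590 reads in liver at 2.25 ppm, against 1065, 1022 and 1051 at 0.4 ppm. Col27a1, a fibrillar collagen, had 2456, 2228 and 3115 reads in liver at 2.25 ppm, against 1260, 1608 and 1562 at 0.4 ppm.

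**Figure D5:**
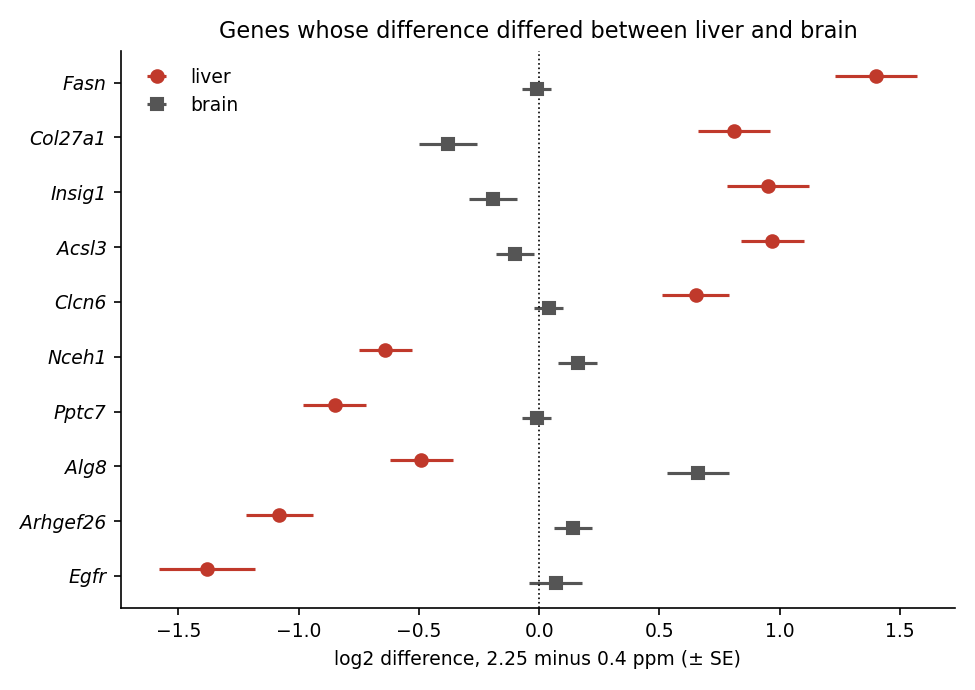
Log2 difference (2.25 minus 0.4 ppm) with its SE in liver (circles) and brain (squares) for the 10 genes past the test of liver minus brain. The liver values run between -1.38 for Egfr and 1.40 for Fasn, and the brain value farthest from 0 is 0.66 for Alg8.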

How the data were processed

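RNA of 24 libraries (3 for each of 4 diets in liver and brain) was extracted with TRIzol and made into libraries with the TruSeq Stranded Total RNA kit, per the labels' protocols. STAR 2.5.2b and RSEM 1.3.0, after Trimmomatic 0.33 and bcl2fastq 2.17, and limma 3.34.5 are among the tools in the submitters' processing notes, which give the build as mm10. The authors deposited a normalized signal per gene, each library's reads divided by a single factor, as the values show: 525456 of 525456 (100%) were within 0.01 of a whole number of reads. A scaling factor shared by all genes can shift every difference of a library, so other scalings were tried.

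Diets were compared on log2(value + 1) by limma 3.58.1 (R 4.3.3), whose variances followed the mean, over the 12 liver libraries in 1 fit, with Benjamini-Hochberg adjustment at 0.05 over 17932 genes. These differences understate the change of low genes. Liver minus brain was fitted over 16801 genes. Alternatives were edgeR 4.0.16 and DESeq2 1.42.0 on recovered reads, other filters, pseudocounts and scalings, and each library left out.

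The columns carry no replicate number. Within the 2 liver groups the chi-square per gene between libraries was 5.83 to 17.96, more than sampling noise gives, so each counted as a replicate. P-values measure the spread between libraries, which may be technical, and no label says that libraries are separate animals.

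Named genes were up to 12 each way of largest difference among those past the test, not overlapping and with a mean of at least 50 in the higher group, fixed selenoproteins, and genes past the liver-minus-brain test. Other list members were picked after their values were seen, mostly among the 6 of smallest p in a list. The members, the 31 pathway and 10 cell type lists and the tests were chosen with earlier results of these data known. Some lists share members, so their counts are not independent. Symbols of 16 genes occur more than once. A few list members are not reported here.

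The authors' deposited table gave p-values for 19492 genes in this comparison, 2006 of them under 0.05 before adjustment and 19 past Benjamini-Hochberg adjustment at 0.05. For the 10 genes past limma here, the authors' own test gave unadjusted p-values between 0.00175 for Prdm10 and 0.0238 for Nr1d1. None of the 10 was among the 19.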

Additional observations from a re-analysis of the deposited data

Results flagged for a closer look

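The log2 difference of 2.25 minus 0.4 ppm was not the same in liver and brain, by limma's test of liver minus brain, for 10 of 16801 genes. The log2 differences between the tissues were 1.42 for Fasn, 1.06 for Acsl3, -1.45 for Egfr, -1.22 for Arhgef26 and -0.84 for Pptc7, which passed in liver as well. They were -0.80 for Nceh1, 0.61 for Clcn6, a chloride-proton exchanger of endosomes, -1.15 for Alg8, a glucosyltransferase of N-glycan synthesis, 1.14 for Insig1 and 1.19 for Col27a1, which did not pass in liver. Alg8 pointed opposite ways, with -0.49 in liver and 0.66 in brain, and averaged 91.3 ± 5.83 reads in brain at 2.25 ppm and 57.4 ± 3.40 at 0.4 ppm (SD, n = 3 each). Its brain difference alone had an adjusted p of 0.699 in limma. The test of liver minus brain took 1 spread per gene from both tissues together. For Clcn6 the SE in that test was 0.12 (limma adjusted p = 0.049), under the SE of 0.14 for liver alone.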

How the results depend on the processing

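The liver count of 10 (6 higher, 4 lower) was 5 (3 and 2) at a pseudocount of 0.1, 6 with quantile normalization, TMM scaling or edgeR (3 higher in each), 83 (60 and 23) in the fit of only the 6 libraries, 121 (76 and 45) with DESeq2 and 111 (74 and 37) with edgeR on only the 6 libraries, an alternative chosen after seeing the data. Without the mean-variance trend it was 7, 1 of them higher and 0 shared with the 10, and the 7 averaged between 0 and 9.90 reads in either group. Leaving out single libraries gave 0 to 15 genes, 0 to 9 higher and 0 to 6 lower. For liver minus brain it gave 3 to 17 genes, 2 to 9 higher and 1 to 9 lower, and without the trend 3 of the lower genes passed in place of 5. The brain count stayed 0 in the fit of only its 6 libraries. With single libraries left out, the difference was -0.01 to 0.09 for Gpx1 (negative without library b of 0.4 ppm) and -0.02 to 0.05 for Gpx4 (negative without library c of 2.25 ppm), and quantile normalization gave -0.02 for Gpx4. No scaling moved the median of all genes by more than 0.026. No paired analysis was possible because the columns carry no replicate numbers. At this depth, genes under about 3 reads could not be compared.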

Other observations

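Gpcpd1, a glycerophosphocholine phosphodiesterase, was chosen after its values were seen, as the gene past the test without library b of 2.25 ppm. It had 1313, 2517 and 1053 normalized reads in libraries a, b and c at 2.25 ppm, against 6547, 4812 and 3401 at 0.4 ppm. The groups did not overlap, and the log2 difference was -1.65 (SE 0.28, limma adjusted p = 0.0681).

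None of the 22 genes of iron and metal handling passed by limma, edgeR or DESeq2, with 4 higher and 1 lower at an unadjusted p under 0.05, beside 6.44% and 4.72% of all genes. The 4 became 0 without library a of 0.4 ppm, 1 without library b of 0.4 ppm and 2 without library a of 2.25 ppm. Slc39a14 and Slc30a10 had the smallest p of the list, a choice made after the values were seen. Slc30a10, which exports manganese, had 1237, 919 and 951 reads at 2.25 ppm, against 360, 603 and 625 at 0.4 ppm (difference 1.0, SE 0.33, limma adjusted p = 0.301). Slc39a14, which imports manganese, zinc and iron, had 4803, 4859 and 4480 reads at 2.25 ppm, against 6450, 6194 and 5341 at 0.4 ppm (difference -0.34, SE 0.11, adjusted p = 0.299). In both genes the groups did not overlap. Of the 22 members, 5 were apart and higher and 4 were apart and lower, beside 11.8% and 7.23% of all genes. Slc30a10 had 1302, 1112 and 404 reads in the libraries at 0 ppm. Slc7a2, a transporter of cationic amino acids, had 5989, 4939 and 4429 reads at 2.25 ppm, against 9178, 7637 and 6614 at 0.4 ppm (difference -0.61, SE 0.14, adjusted p = 0.153), and DESeq2 called it.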
